A study of Mus musculus with 8 samples.

Results

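Collagens are the main structural proteins of bone, cartilage, tendon, skin and basement membranes. The collagen genes described here are the 43 genes whose probe set carried exactly 1 symbol made of Col, a type number and a chain number, with the probe set of highest mean signal taken for each gene. They are 43 of the 19938 genes that the array annotation names with a single symbol, and each was measured in tissue that the labels call paw articular. Each collagen molecule is a triple helix of alpha chains, and each chain has its own gene. Fibrillar collagens assemble end to end into the fibrils that carry tension, and FACIT collagens sit on the surface of those fibrils. Cartilage has fibrils of its own, made of types II, IX and XI, and its hypertrophic zone makes type X. Network-forming type IV builds basement membranes, and type VI forms beaded filaments around cells. In arthritis, collagen of the joint is degraded while fibroblasts of the synovium and of repair tissue lay down new matrix.

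Total RNA from paws of male DBA1J mice, aged 8 to 10 weeks and kept in 4 groups of 8 mice, was hybridised to Affymetrix Mouse Gene 1.0 ST arrays, with 2 arrays per group and 8 in all. CIA+MLIF mice were immunised with type II collagen of the chicken, 150 µg in an emulsion with complete Freund adjuvant, were boosted in week 3 with incomplete adjuvant, and were given MLIF by the nose every week, starting 1 week before the first injection. MLIF is the monocyte locomotion inhibitory factor, a small peptide of the amoeba Entamoeba histolytica. CIA mice had the same collagen and adjuvant (collagen-induced arthritis) without MLIF. Adjuvant+MLIF mice had complete adjuvant, the booster in incomplete adjuvant and weekly nasal MLIF for 9 weeks, but no collagen. Adjuvant mice had both adjuvant injections alone, so every group carried Freund adjuvant and untreated mice were not analysed here. The samples' own labels date the tissue to 4 weeks after the booster, whereas the series text puts it before the booster. Both arrays of a group are labelled as biological replicates, and whether an array holds 1 mouse or a pool is not stated. A paw contains skin, muscle, bone and marrow beside the joint, and in such a tissue fewer cells of a type and less RNA per cell cannot be told apart.

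The arrays were not equally placed. The median annotated log2 signal was 6.66 on CIA replicate 1 and 7.07 to 7.10 on the other 7 arrays. Across all 28944 probe sets tested, the median log2 change was -0.25 for CIA against adjuvant and 0.24 for CIA+MLIF against CIA, so changes below are to be read relative to these shifts. After quantile normalization of the arrays these medians were 0.01 and -0.02. The 2 adjuvant+MLIF arrays lay closer together than the arrays of any other group, with a standard deviation of the replicate difference of 0.0936, against 0.263 for CIA+MLIF, 0.324 for CIA and 0.207 for adjuvant. For the collagen genes the median absolute replicate difference was 0.105 in CIA+MLIF, 0.204 in CIA, 0.0214 in adjuvant+MLIF and 0.0677 in adjuvant. Of the 43 genes, 40 lay above the median of the array's control entries on all 8 arrays. Col6a4 was below it on 7 arrays, Col19a1 on 5 and Col4a6 on 3. All values are deposited log2 signals, and differences are log2 changes with the standard error of the limma fit. A gene is said to have passed when its Benjamini-Hochberg adjusted p over all probe sets was below 0.05.

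**Figure D1:**
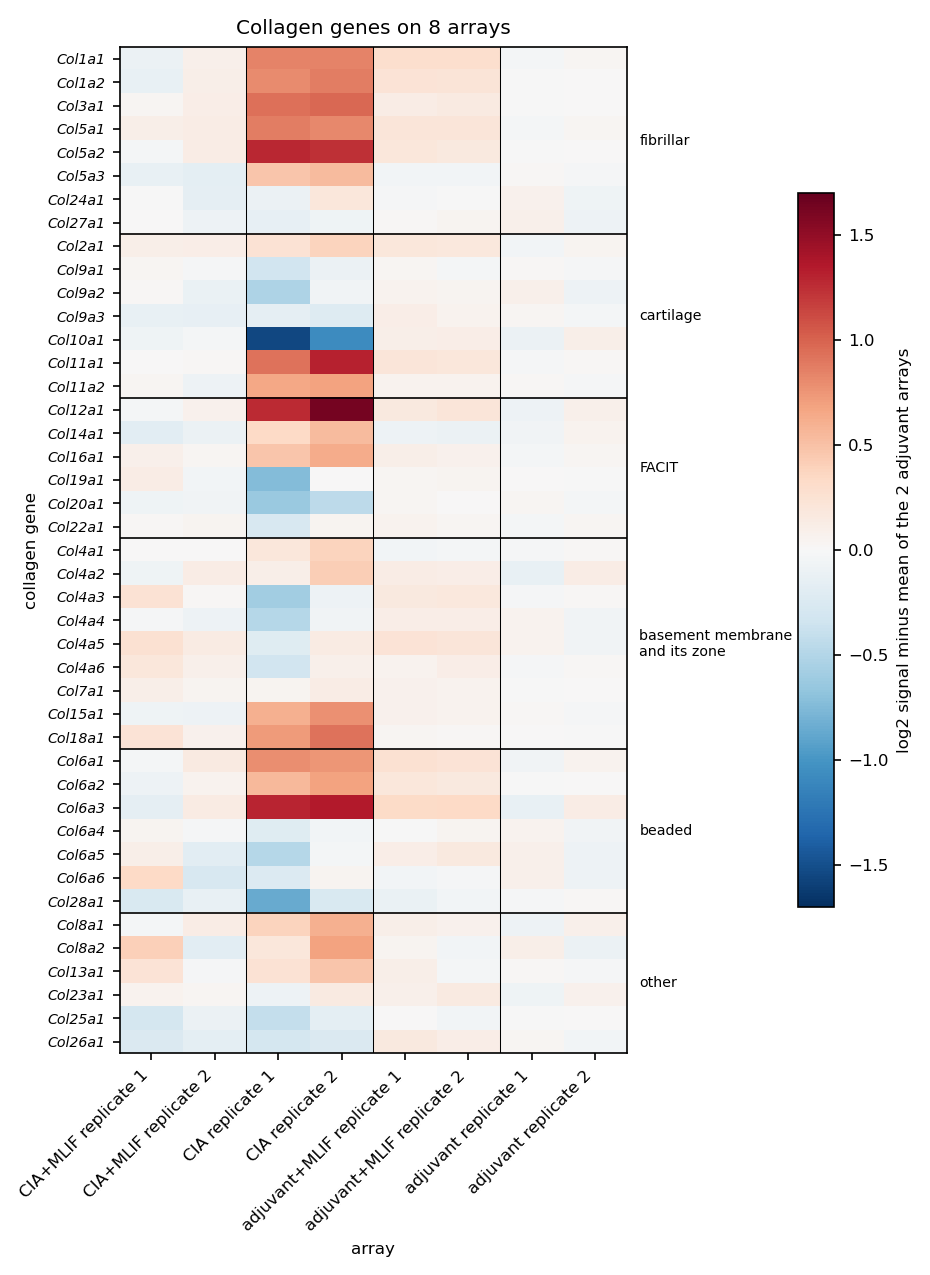
Log2 signal of the 43 collagen genes on each of the 8 arrays, minus the mean of the 2 adjuvant arrays for that gene, with genes in rows by collagen class and arrays in columns (red is higher than adjuvant, blue lower). The strongest red is that of Col12a1 on CIA replicate 2 and the strongest blue that of Col10a1 on CIA replicate 1. Col28a1 and Col19a1, which did not pass, are also blue on CIA replicate 1.

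In paws of CIA mice, 15 collagen genes were higher than in paws of adjuvant mice. They included both chains of type I, the chain of type III, the 3 chains of type V, both chains of type XI, Col6a1, Col6a2 and Col6a3 of type VI and the FACIT Col12a1, with log2 changes up to 1.45, which is 2.73 times the adjuvant signal. Col10a1 of hypertrophic cartilage went the other way, to 0.405 of the adjuvant signal. Of the 43 genes, 17 passed (39.5%), 15 higher and 2 lower, against 18.5% of all probe sets, of which 4.30% were higher and 14.2% lower. Both CIA arrays lay above both adjuvant arrays for 22 of the 43 genes and below them for 9, against 12.5% and 44.7% of all probe sets. The median change of the 43 genes was 0.26, which lies 0.50 above the median of all probe sets. By class, 6 of 8 fibrillar genes, 3 of 7 beaded filament genes, 2 of 7 cartilage genes, 2 of 6 FACIT genes and 2 of 9 genes of the basement membrane and its zone passed as higher. Each gene was counted in 1 class, so the fibrillar and FACIT counts leave out types II, IX and XI, which are in the cartilage class. None of the 6 short-chain, transmembrane and unclassed genes passed.

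To show what lies in front of genes with different responses, the 250 bases upstream of the start of the RefSeq promoter entry are printed for 4 of them, from mouse build GRCm38.p6, 5′ to 3′ on the gene's strand. Col1a2 and Col3a1 stand for the fibrillar genes that were higher in CIA. Col11a1 and Col10a1 are cartilage genes that moved in opposite directions. Capitals mark each CCAAT box, TATAAA and GGGCGG, sought on both strands, so that CCAAT on the other strand reads ATTGG.
Col1a2, chr6:4505368-4505617, plus strand: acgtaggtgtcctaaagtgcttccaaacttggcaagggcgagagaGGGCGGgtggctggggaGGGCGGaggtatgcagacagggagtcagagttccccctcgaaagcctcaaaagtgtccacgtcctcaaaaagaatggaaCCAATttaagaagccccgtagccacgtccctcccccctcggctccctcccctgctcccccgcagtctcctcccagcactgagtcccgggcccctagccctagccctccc
Col3a1, chr1:45311288-45311537, plus strand: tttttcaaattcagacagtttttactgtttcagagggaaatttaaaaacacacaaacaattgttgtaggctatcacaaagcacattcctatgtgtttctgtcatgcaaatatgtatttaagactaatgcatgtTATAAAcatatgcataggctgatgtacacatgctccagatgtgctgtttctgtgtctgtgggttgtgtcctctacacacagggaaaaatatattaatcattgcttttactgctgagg
Col11a1, chr3:114030290-114030539, plus strand: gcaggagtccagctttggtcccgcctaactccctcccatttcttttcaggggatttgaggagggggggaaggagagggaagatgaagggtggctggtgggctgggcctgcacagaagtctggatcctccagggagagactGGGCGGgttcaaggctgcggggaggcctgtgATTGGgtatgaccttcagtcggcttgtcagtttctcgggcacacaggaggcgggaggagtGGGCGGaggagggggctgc
Col10a1, chr10:34389731-34389980, plus strand: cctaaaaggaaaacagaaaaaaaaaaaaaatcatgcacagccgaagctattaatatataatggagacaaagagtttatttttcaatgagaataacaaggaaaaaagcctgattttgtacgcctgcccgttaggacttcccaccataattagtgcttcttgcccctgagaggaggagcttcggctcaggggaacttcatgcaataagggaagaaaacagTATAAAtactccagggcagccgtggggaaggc
In Col1a2 the CCAAT begins 109 bases before the start and the 2 GGGCGG lie 205 and 188 bases before it. In Col11a1 the ATTGG begins 79 bases before the start of its entry, with GGGCGG at 110 and 19 bases. That window ends at 114030539, past the annotated gene start at 114030479, so the GGGCGG at 19 bases lies inside the gene. The other printed windows end just before their gene's start. Col10a1 has TATAAA 32 bases before the start, and Col3a1 has it 117 bases before. None of the marked motifs overlapped another. In the same 250 bases of all 32851 RefSeq promoter entries, CCAAT was found in 33.8%, TATAAA in 12.4% and GGGCGG in 32.7%. For the collagen genes, 34 of 43 matched an entry, with 37 entries in all, and the motifs were found in 12, 4 and 22 of these. A match is only a run of letters in this window. The genes without an entry were Col1a1, Col5a2, Col2a1, Col9a3, Col12a1, Col14a1, Col22a1, Col4a3 and Col26a1.

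Of the 8 fibrillar genes 6 were higher in CIA paws, with a class median of 0.84. Col1a1 and Col1a2 encode the chains of type I collagen, the fibril of bone, tendon and skin. Col1a1 had 14.31 on both CIA arrays, against 13.43 and 13.50 on the adjuvant arrays, a log2 change of 0.85 ± 0.14 (SE, adjusted p = 0.00359). Col1a2 had 14.01 and 14.08 on the CIA arrays, against 13.21 and 13.22 on the adjuvant arrays, a change of 0.83 ± 0.15 (adjusted p = 0.00439). For both chains every CIA array lay above every array of the other groups. The highest signal of any entry on an array was 14.74 to 14.90, so Col1a1 was measured near the top of the scale. Col3a1, the single chain of type III collagen, which accompanies type I in extensible and healing tissue, had 13.23 and 13.27 on the CIA arrays, against 12.28 and 12.30 on the adjuvant arrays (0.96 ± 0.14, adjusted p = 0.00143).

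Type V collagen, which starts and limits the growth of type I fibrils, gave the largest fibrillar change. Col5a2 had 11.27 and 11.22 on the CIA arrays, against 9.97 and 9.99 on the adjuvant arrays (1.26 ± 0.14, adjusted p = 3.65e-04). Col5a1 had 10.24 and 10.19 on the CIA arrays, against 9.34 and 9.41 on the adjuvant arrays (0.84 ± 0.14, adjusted p = 0.0029). Col5a3 had the smallest passing change of the class, with 9.12 and 9.19 on the CIA arrays, against 8.67 and 8.63 on the adjuvant arrays (0.51 ± 0.14, adjusted p = 0.0334). For all 3 chains the CIA and adjuvant arrays did not overlap. The minor fibrillar genes Col24a1 and Col27a1 did not pass, at 0.04 and -0.10.

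**Figure D2:**
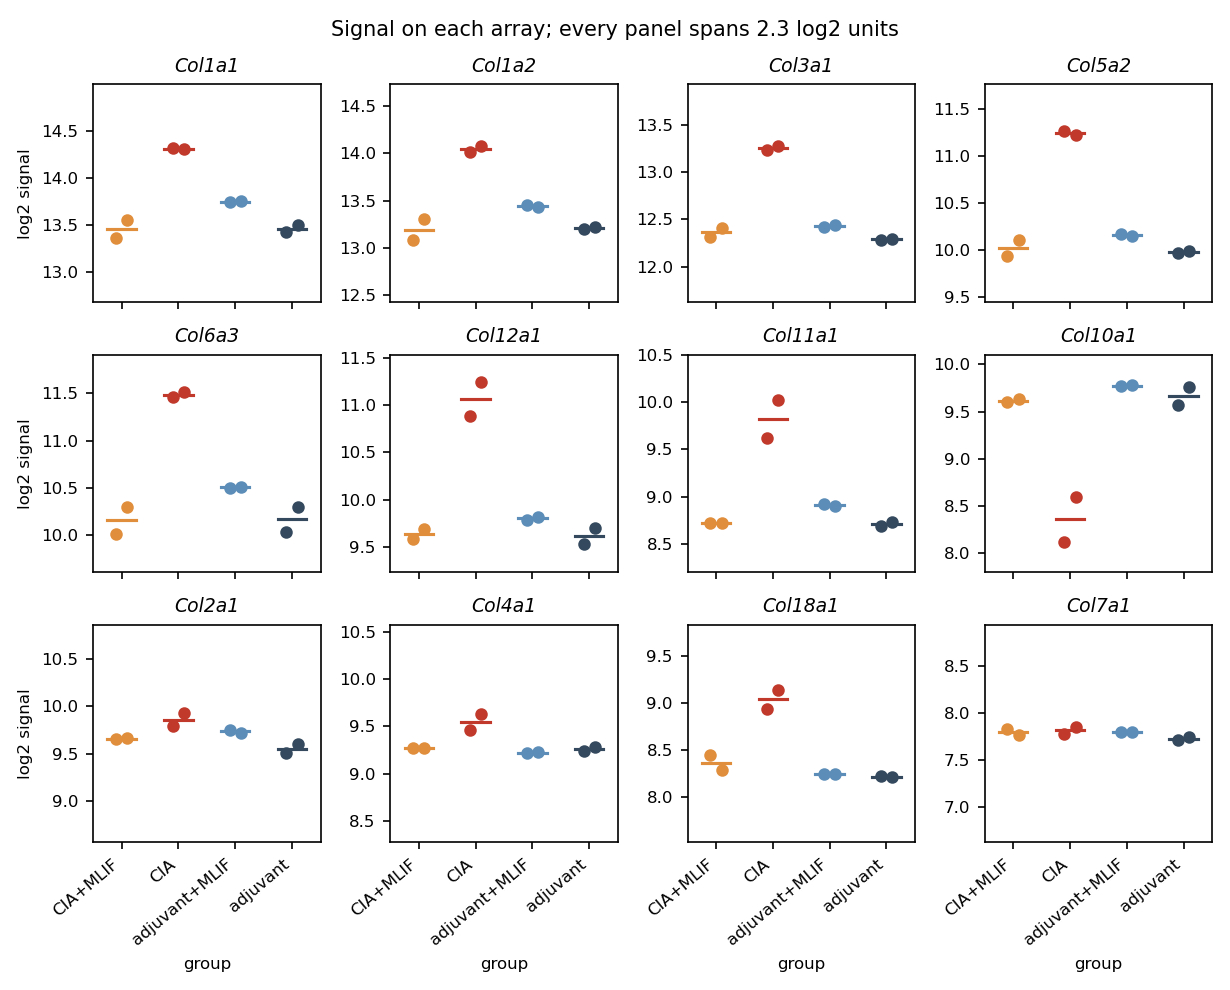
Log2 signal of 12 collagen genes on each array (dots) with the mean of the 2 arrays of a group (line), for CIA+MLIF, CIA, adjuvant+MLIF and adjuvant; each panel has its own y axis of equal span. For Col1a1, Col1a2, Col3a1, Col5a2, Col6a3, Col12a1, Col11a1 and Col18a1 both CIA arrays lie above the other 6, for Col10a1 they lie below them, and for Col7a1 the groups lie close together.

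Cartilage genes did not move together. Type XI collagen is the thin core of cartilage fibrils, and its alpha 1 chain is also made outside cartilage. Col11a1 had 9.62 and 10.02 on the CIA arrays, against 8.69 and 8.73 on the adjuvant arrays (1.11 ± 0.16, adjusted p = 0.00171). Col11a2 had 9.26 and 9.29 on the CIA arrays, against 8.62 and 8.59 on the adjuvant arrays (0.67 ± 0.14, adjusted p = 0.0103). Col10a1, which hypertrophic chondrocytes of the growth plate make, had 8.12 and 8.60 on the CIA arrays, against 9.57 and 9.76 on the adjuvant arrays. That change of -1.30 ± 0.18 (adjusted p = 0.00124) was the largest downward one among the 43 genes, and no CIA array reached any array of the other groups. Col2a1, the type II chain whose chicken counterpart was the immunogen, had 9.79 and 9.93 on the CIA arrays, against 9.50 and 9.60 on the adjuvant arrays. Its change of 0.31 ± 0.14 did not pass (adjusted p = 0.149), and its 95% interval ran from -0.0077 to 0.63. After quantile normalization of the arrays Col2a1 did pass, at 0.47 (adjusted p = 0.0071). Col9a1, Col9a2 and Col9a3, the chains that decorate type II fibrils, gave -0.21, -0.30 and -0.19 and did not pass.

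Chondrocyte markers are the values to set beside these genes. Of 10 chondrocyte markers measured, 9 lay above the control entries on all 8 arrays, and Matn1 lay below them. In CIA against adjuvant, 3 of the 10 were lower and none higher, with Cytl1 at -2.41, Snorc at -0.90 and Cnmd at -0.77. Over all probe sets 14.2% were lower. The 10 changes ran from -2.41 to 0.41, with a median of -0.31, close to the -0.25 of all probe sets. Both CIA arrays lay above both adjuvant arrays for 2 of the 10 and below them for 4, against 12.5% and 44.7% of all probe sets. On average, CIA arrays lay 1.67 and 1.68 above their median signal in these 10 markers, against 1.87 and 1.92 for adjuvant arrays. The part of chondrocyte content in the Col10a1 value was not tested.

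Among the FACIT genes, Col12a1 and Col20a1 went opposite ways. Col12a1 encodes type XII collagen, which binds type I fibrils in tendon, ligament and dense connective tissue. It had 10.89 and 11.24 on the CIA arrays, against 9.53 and 9.70 on the adjuvant arrays, and its change of 1.45 ± 0.17 (adjusted p = 4.16e-04) was the largest of the 43 genes. Col16a1, a minor FACIT, had 8.81 and 8.97 on the CIA arrays, against 8.31 and 8.37 on the adjuvant arrays (0.55 ± 0.14, adjusted p = 0.0276). Col20a1 had 7.00 and 7.18 on the CIA arrays, against 7.66 and 7.60 on the adjuvant arrays (-0.54 ± 0.14, adjusted p = 0.0302). The call of Col16a1 held under 8 of the 17 alternatives run and that of Col20a1 under 7, and centring each array on its median ended the call of Col20a1, at -0.32. The change of Col14a1, another FACIT on type I fibrils, was 0.44 ± 0.15 and did not pass (adjusted p = 0.0676), though its arrays did not overlap, at 10.59 and 10.80 in CIA against 10.20 and 10.31 in adjuvant. Under quantile normalization Col14a1 passed at 0.55 (adjusted p = 0.00214). Col19a1 and Col22a1, a collagen of the muscle-tendon junction, gave -0.37 and -0.11 and did not pass.

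In the class of the basement membrane and its zone, Col15a1 and Col18a1 were higher and the other 7 genes did not pass. Col15a1 and Col18a1 encode the multiplexins, which lie at the outer face of basement membranes, and the end of the Col18a1 protein is released as endostatin. Col18a1 had 8.94 and 9.14 on the CIA arrays, against 8.22 on both adjuvant arrays (0.82 ± 0.15, adjusted p = 0.00522). Col15a1 had 9.56 and 9.73 on the CIA arrays, against 8.98 and 8.93 on the adjuvant arrays (0.69 ± 0.14, adjusted p = 0.0101). None of the 6 type IV genes passed. Col4a1, which pairs with Col4a2 in nearly all basement membranes, had 9.46 and 9.64 on the CIA arrays, against 9.24 and 9.28 on the adjuvant arrays. Its change of 0.29 ± 0.14 (adjusted p = 0.18) had a 95% interval of -0.03 to 0.60. Col4a2 had 9.52 and 9.85 on the CIA arrays, against 9.30 and 9.55 on the adjuvant arrays, which overlap (0.26 ± 0.17, adjusted p = 0.302). With quantile normalization Col4a1 and Col4a2 passed, at 0.43 and 0.41 (adjusted p = 0.0089 and 0.0133). Col4a3, Col4a4, Col4a5 and Col4a6, chains of specialised basement membranes such as that of the glomerulus, gave -0.34, -0.27, -0.03 and -0.12 and did not pass. Col7a1, which forms the anchoring fibrils beneath the epidermis, had 7.78 and 7.85 in CIA, against 7.71 and 7.74 in adjuvant. Its change of 0.09 ± 0.14 (adjusted p = 0.664) had a 95% interval of -0.22 to 0.40.

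Type VI collagen, the beaded filament around cells of muscle, skin and cartilage, was higher in all 3 of its classical chains. Col6a3 had 11.46 and 11.51 on the CIA arrays, against 10.04 and 10.30 on the adjuvant arrays (1.32 ± 0.16, adjusted p = 6.76e-04). Col6a1 had 11.28 and 11.24 on the CIA arrays, against 10.44 and 10.55 on the adjuvant arrays (0.77 ± 0.14, adjusted p = 0.00651). Col6a2 had 10.82 and 10.96 on the CIA arrays, against 10.26 and 10.29 on the adjuvant arrays (0.62 ± 0.14, adjusted p = 0.0181). Both CIA arrays lay above all other arrays for each of these chains. Col6a4, Col6a5 and Col6a6, which can take the place of the alpha 3 chain, gave -0.13, -0.26 and -0.09 and did not pass. The second probe set of Col6a6 gave 0.35, opposite in sign, and that of Col6a5 gave -0.54, and neither passed. Col28a1, found around Schwann cells in the mouse, gave -0.56 (adjusted p = 0.0814).

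The 6 other genes did not pass. Col8a1 and Col8a2, the short-chain collagens of vessel walls and the cornea, gave 0.49 (adjusted p = 0.0562) and 0.44. The transmembrane collagens Col13a1, Col23a1 and Col25a1 gave 0.36, 0.03 and -0.28, and Col26a1 gave -0.27. Under quantile normalization Col8a1 and Col13a1 passed, at 0.64 and 0.49 (adjusted p = 0.00154 and 0.0188). In all, that normalization gave 21 collagen genes higher and 2 lower, against 14.4% and 13.7% of all probe sets. Of the 17 calls, 7 held under each of the 17 alternatives run, namely Col3a1, Col5a1, Col5a2, Col10a1, Col11a1, Col12a1 and Col6a3. The other calls held under 7 to 15 of them, with that of Col5a3 held under 8 and that of Col6a2 under 10. Fewer genes passed without either adjuvant array, and more passed without CIA replicate 2. In that last fit the CIA group was replicate 1 alone, whose median signal was 6.66, against 7.07 to 7.10 on the other arrays. Its count is therefore not read as a result about collagen genes.

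**Figure D3:**
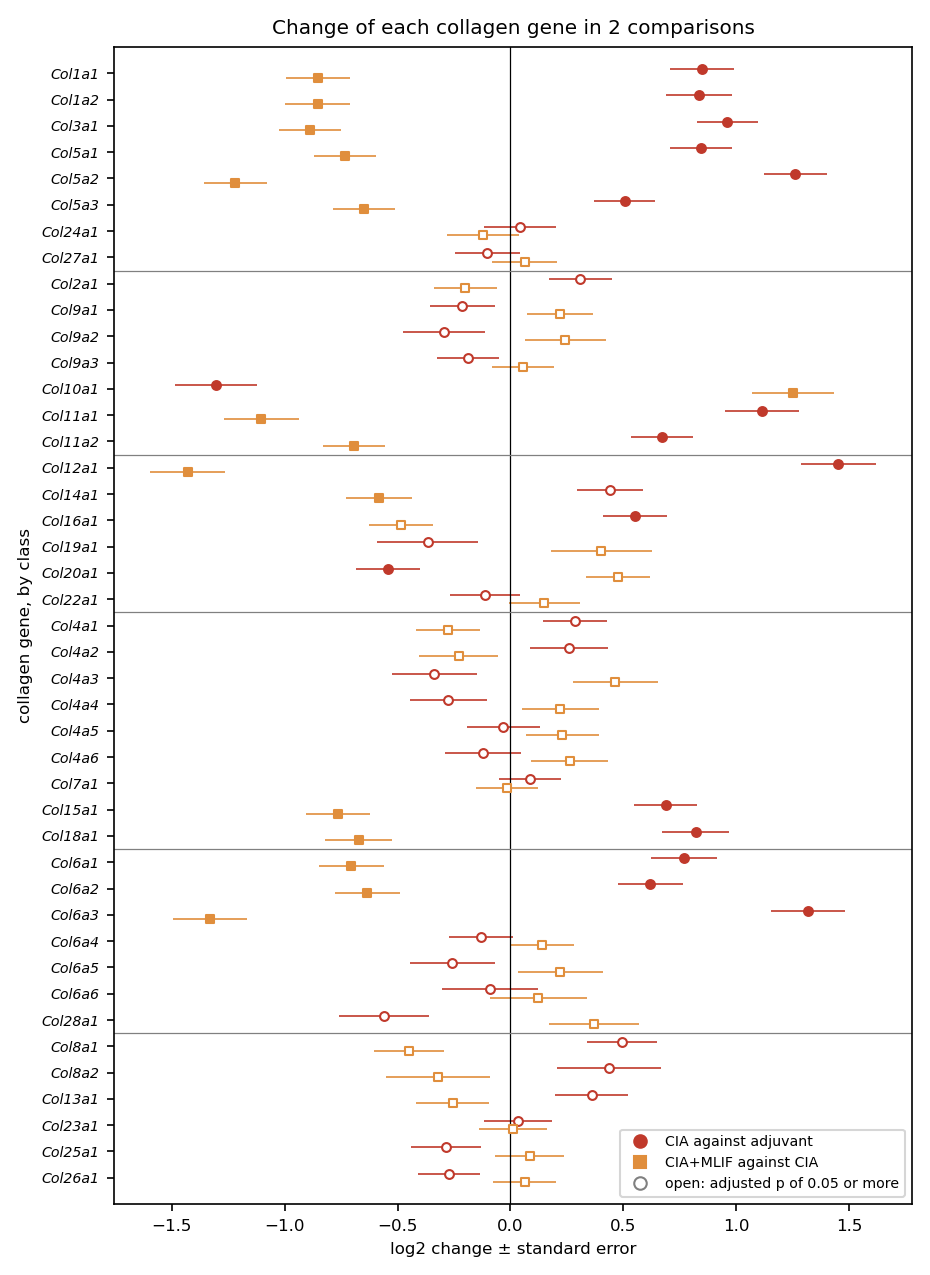
Log2 change ± standard error of each of the 43 collagen genes, by class, for CIA against adjuvant (circles) and CIA+MLIF against CIA (squares); filled symbols passed at adjusted p below 0.05. In CIA against adjuvant 15 filled symbols lie right of 0 and 2 left of it, and in CIA+MLIF against CIA 1 lies right and 15 left; both comparisons use the same 2 CIA arrays.

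Several collagen genes lie next to each other in the genome with no coding gene between them. Col3a1 and Col5a2, which are such neighbours, were both higher in CIA, at 0.96 and 1.26. The neighbours Col6a2 and Col6a1 were also both higher, at 0.62 and 0.77. The head-to-head pairs of type IV genes gave 0.29 and 0.26 for Col4a1 and Col4a2, and -0.27 and -0.34 for Col4a4 and Col4a3. Col4a6 and Col4a5 gave -0.12 and -0.03. None of these type IV genes passed, and likeness within pairs was not tested against other neighbouring genes. Col9a1 and Col19a1 gave -0.21 and -0.37, and the row of Col6a6, Col6a5 and Col6a4 gave -0.09, -0.26 and -0.13, also without passing.

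In CIA mice given MLIF, 15 collagen genes were lower than in CIA mice without it, among them both chains of type I, the chain of type III, the 3 chains of type V, both chains of type XI, Col6a1, Col6a2, Col6a3 and Col12a1. Of the 43 genes, 16 passed in CIA+MLIF against CIA, 15 lower and 1 higher, against 14.7% of all probe sets, of which 11.5% were higher and 3.25% lower. Both CIA+MLIF arrays lay below both CIA arrays for 20 of the 43 genes and above them for 9, against 10.9% and 40.7% of all probe sets. The median change of the collagen genes was -0.20, which lies 0.44 below that of all probe sets. This comparison shares the CIA arrays with the one above, so the mirrored values are not independent of it. Of the 8 fibrillar genes 6 were lower, with a class median of -0.79. Col5a2 had 9.94 and 10.11 on the CIA+MLIF arrays, against 11.27 and 11.22 on the CIA arrays (-1.22 ± 0.14, adjusted p = 6.67e-04). Col3a1 had 12.32 and 12.41 on the CIA+MLIF arrays, against 13.23 and 13.27 on the CIA arrays (-0.89 ± 0.14, adjusted p = 0.00308). The type I chains were lower by like amounts. Col1a1 had 13.37 and 13.55 on the CIA+MLIF arrays, against 14.31 on both CIA arrays (-0.85 ± 0.14, adjusted p = 0.00466). Col1a2 had 13.08 and 13.31 on the CIA+MLIF arrays, against 14.01 and 14.08 on the CIA arrays (-0.85 ± 0.15, adjusted p = 0.00503). Col5a1 and Col5a3 passed as lower at -0.73 and -0.65.

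Outside the fibrillar class, 9 genes were lower and Col10a1 was higher. Col12a1 had 9.58 and 9.69 on the CIA+MLIF arrays, against 10.89 and 11.24 on the CIA arrays (-1.43 ± 0.17, adjusted p = 6.83e-04). Col6a3 had 10.01 and 10.30 on the CIA+MLIF arrays, against 11.46 and 11.51 on the CIA arrays (-1.33 ± 0.16, adjusted p = 9.20e-04). Col11a1 had 8.72 on both CIA+MLIF arrays, against 9.62 and 10.02 on the CIA arrays (-1.10 ± 0.16, adjusted p = 0.00252). In each of these 3 genes both CIA+MLIF arrays lay below both CIA arrays. Col10a1 had 9.60 and 9.63 on the CIA+MLIF arrays, against 8.12 and 8.60 on the CIA arrays, and was higher by 1.25 ± 0.18 (adjusted p = 0.00215). Col14a1 had 10.07 and 10.15 on the CIA+MLIF arrays, against 10.59 and 10.80 on the CIA arrays (-0.58 ± 0.15, adjusted p = 0.0302). The remaining genes that passed as lower were Col6a1 at -0.70, Col6a2 at -0.63, Col15a1 at -0.76, Col18a1 at -0.67 and Col11a2 at -0.69.

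Some genes fell short in this comparison. Col2a1 had 9.66 on both CIA+MLIF arrays, against 9.79 and 9.93 on the CIA arrays (-0.20 ± 0.14, adjusted p = 0.334), with a 95% interval of -0.52 to 0.12. Col16a1 gave -0.48 (adjusted p = 0.051) and Col20a1 gave 0.48 (adjusted p = 0.0547). Col4a1 gave -0.28 (adjusted p = 0.2) and Col4a2 gave -0.23 (adjusted p = 0.367). Under quantile normalization 20 genes were lower and 1 higher, against 13.0% and 11.5% of all probe sets. Col2a1 at -0.36, Col16a1 at -0.61, Col4a1 at -0.42, Col4a2 at -0.39 and Col8a1 at -0.59 then passed (adjusted p = 0.0278, 0.00272, 0.0118, 0.0201 and 0.00282). Of the 16 calls, 5 held under each of the 18 alternatives run, namely Col5a2, Col10a1, Col11a1, Col12a1 and Col6a3. Fewer genes passed without either CIA+MLIF array, and more passed without CIA replicate 2, where the CIA group was the low-lying replicate 1 alone.

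In mice without collagen, MLIF gave no collagen gene that passed. In adjuvant+MLIF against adjuvant 0 of 43 genes passed, as did 0% of all probe sets, and 0 of the 43 reached an unadjusted p below 0.05. The changes ran from -0.09 to 0.34, with a median of 0.08 against 0.03 for all probe sets. The largest was that of Col6a3, which had 10.50 and 10.51 on the adjuvant+MLIF arrays, against 10.04 and 10.30 on the adjuvant arrays. Col1a1 followed with 13.75 on both adjuvant+MLIF arrays, against 13.43 and 13.50 on the adjuvant arrays, a change of 0.29. Both adjuvant+MLIF arrays lay above both adjuvant arrays for 27 of 43 genes (62.8%), and this held for 31.7% of all probe sets. For 4 genes both lay below, against 23.0% of all probe sets.

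Between the groups given MLIF, collagen immunisation gave no collagen gene that passed. In CIA+MLIF against adjuvant+MLIF 0 of 43 genes passed, against 0.729% of all probe sets (0.712% higher and 0.0173% lower), and 1 gene reached an unadjusted p below 0.05. The changes ran from -0.35 to 0.12, with a median of -0.08 against -0.03 for all probe sets. That 1 gene was Col26a1, which had the lowest change, with 7.37 and 7.45 on the CIA+MLIF arrays, against 7.79 and 7.73 on the adjuvant+MLIF arrays. Col1a1 had 13.37 and 13.55 on the CIA+MLIF arrays, against 13.75 on both adjuvant+MLIF arrays, and Col6a3 had 10.01 and 10.30 against 10.50 and 10.51. Both CIA+MLIF arrays lay below both adjuvant+MLIF arrays for 26 of 43 genes (60.5%), against 32.2% of all probe sets, and above them for 2 genes, against 21.0%.

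The difference between the MLIF changes with and without collagen was tested as an interaction. For 12 of 43 genes it passed, 11 of them negative and 1 positive, against 7.24% of all probe sets, of which 5.62% were positive and 1.62% negative. After quantile normalization 19 genes were negative and 1 positive, against 8.79% and 8.61% of all probe sets. As deposited, its median over the 43 genes was -0.24, against 0.21 over all probe sets. The 3 largest differences were Col6a3 at -1.67 ± 0.23 (adjusted p = 0.00287), Col12a1 at -1.62 ± 0.23 (adjusted p = 0.00355) and Col5a2 at -1.40 ± 0.20 (adjusted p = 0.00322). In each of these genes the signal was lower with MLIF among collagen-immunised mice, at -1.33, -1.43 and -1.22, and 0.34, 0.19 and 0.18 among mice without collagen. These same 3 genes passed under each of the 16 alternatives run. The count was lower when the 2 adjuvant+MLIF arrays were averaged into 1, and without either of them. Such fits have 1 array in a group and fewer degrees of freedom, and why the count fell was not tested. The count was also lower without any 1 of the CIA+MLIF or adjuvant arrays, and higher without either CIA array. Shares of all probe sets in these fits are not given here.

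**Figure D4:**
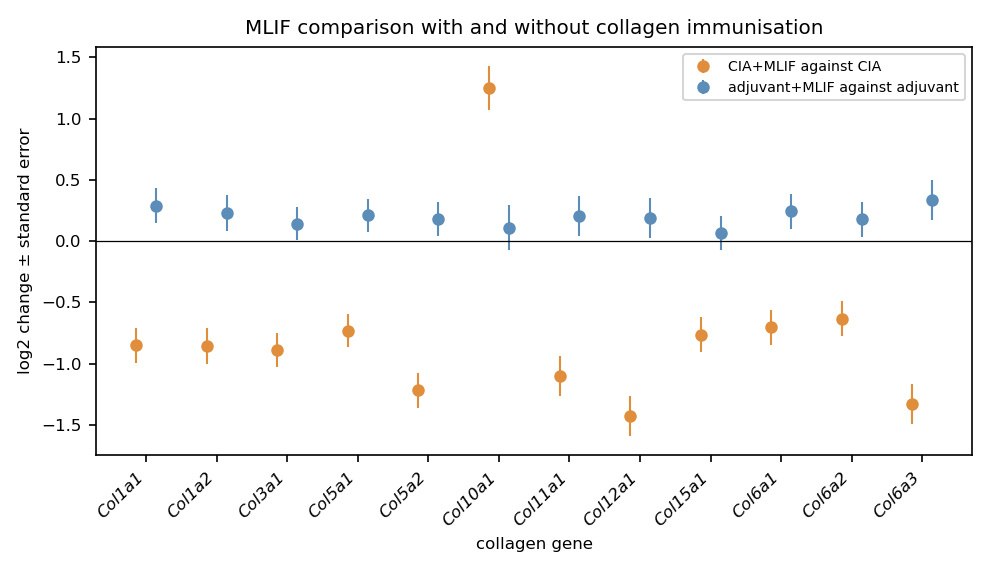
Log2 change ± standard error with MLIF for the 12 collagen genes whose interaction passed, in collagen-immunised mice (CIA+MLIF against CIA) and in mice without collagen (adjuvant+MLIF against adjuvant). In 11 genes the first value lies between -1.43 and -0.63, in Col10a1 it is 1.25, and the second values lie between 0.06 and 0.34, none of which passed.

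Genes that make, assemble and degrade collagen were examined as lists. Of 56 genes listed 52 were measured, and 18 were higher and 4 lower in CIA against adjuvant. Over all probe sets, 4.30% were higher and 14.2% lower, and the counts of each list are to be read beside these shares. Among 17 genes of chain modification and folding, 8 were higher and 1 lower. Plod2, the lysyl hydroxylase of the telopeptides, gave 1.18 (adjusted p = 0.00155), and Serpinh1, the collagen chaperone Hsp47, gave 1.00 (adjusted p = 0.00341). Colgalt2, a collagen galactosyltransferase, was lower at -1.32 (adjusted p = 0.00424). Of 8 genes of export and propeptide removal, the C-proteinase Bmp1 was higher at 0.53 (adjusted p = 0.0464) and its enhancer Pcolce2 was lower at -1.19 (adjusted p = 8.50e-04). None of the 4 crosslinking genes passed, with the lysyl oxidases Lox at 0.48 and Loxl1 at 0.45.

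Fibril assembly, collagen breakdown and collagen receptors made up the other lists. Of 7 fibril assembly genes 3 were higher and 1 lower. The small proteoglycans Lum and Bgn gave 1.74 (adjusted p = 1.43e-04) and 0.79 (adjusted p = 0.00448), and the tenascin Tnxb gave -1.20 (adjusted p = 7.00e-04). Of 7 collagen breakdown genes 6 were higher. The gelatinase Mmp9 gave 2.61 (adjusted p = 6.09e-06), the collagenase Mmp13 gave 2.37 (adjusted p = 8.20e-06) and the neutrophil collagenase Mmp8 gave 2.15 (adjusted p = 1.09e-04). Mmp8 and Mmp1a lay below the median of the control entries on both adjuvant arrays. Of 9 receptors, the inhibitory receptor Lair1 was lower at -0.81 (adjusted p = 0.0269) and the others did not pass. That 1 of 9 stands beside 14.2% of all probe sets that were lower. In CIA+MLIF against CIA, 3 of the 52 genes were higher and 18 lower, among them all 6 breakdown genes, with Mmp9 at -2.65, Mmp13 at -2.59 and Mmp8 at -2.06. Over all probe sets, 11.5% were higher and 3.25% lower. In both comparisons without CIA arrays 0 of the 52 passed, and the interaction passed for 2 as positive and 13 as negative. Over all probe sets the interaction was positive in 5.62% and negative in 1.62%. In adjuvant+MLIF against adjuvant 0% of all probe sets passed, and in CIA+MLIF against adjuvant+MLIF 0.729%.

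**Figure D5:**
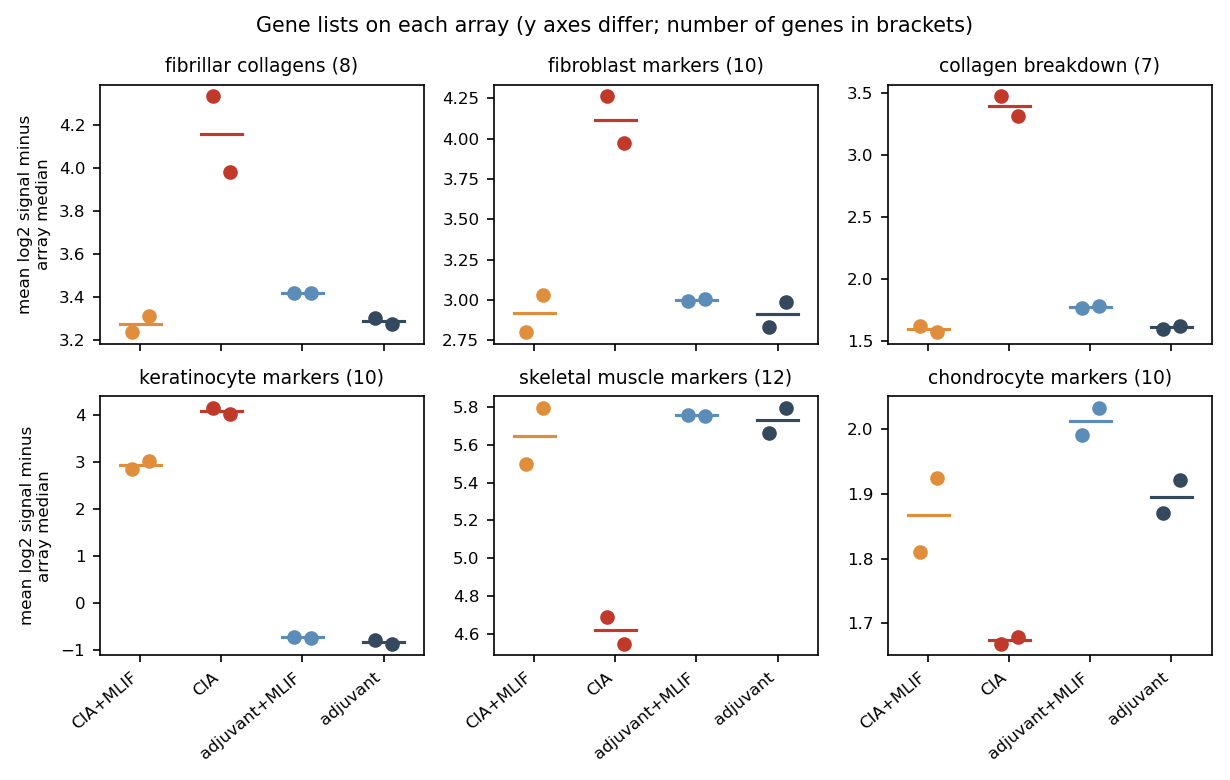
Mean log2 signal of the genes of 6 lists above the median of the array, on each array (dots) with the mean of the 2 arrays of a group (line), for CIA+MLIF, CIA, adjuvant+MLIF and adjuvant; y axes differ between panels. Fibrillar collagens, fibroblast markers and collagen breakdown genes are highest on the CIA arrays, skeletal muscle and chondrocyte markers are lowest there, and keratinocyte markers are high in both collagen-immunised groups.

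Fibroblast and skeletal muscle markers set the CIA arrays apart, as the fibrillar genes did, whereas keratinocyte markers were high in both collagen-immunised groups. The 8 fibrillar genes averaged 3.24 and 3.31 above the array median on the CIA+MLIF arrays, 4.33 and 3.98 on the CIA arrays, 3.42 on both adjuvant+MLIF arrays, and 3.30 and 3.28 on the adjuvant arrays. The 10 fibroblast markers averaged 2.80 and 3.03 in CIA+MLIF, 4.26 and 3.97 in CIA, 3.00 on both adjuvant+MLIF arrays, and 2.83 and 2.99 in adjuvant. Of these, 5 were higher in CIA against adjuvant, led by Cthrc1 at 3.31, Postn at 2.12 and Lum at 1.74, and the others did not pass. Over all probe sets, 4.30% were higher and 14.2% lower in that comparison. The 12 skeletal muscle markers averaged 5.50 and 5.79 in CIA+MLIF, 4.69 and 4.55 in CIA, 5.76 and 5.75 in adjuvant+MLIF, and 5.66 and 5.79 in adjuvant, and all 12 were lower in CIA against adjuvant. The 10 keratinocyte markers averaged 2.86 and 3.03 in CIA+MLIF, 4.16 and 4.03 in CIA, -0.71 and -0.73 in adjuvant+MLIF, and -0.78 and -0.85 in adjuvant. Of them, 9 were higher in CIA against adjuvant, with Krt1 at 7.23, Krt2 at 6.86 and Krt10 at 6.41, and Krt1, Krt2 and Lor lay below the control entries on both adjuvant arrays. In CIA+MLIF against CIA, 5 of the 10 were lower, with a median change of -0.89. Over all probe sets 3.25% were lower there, and the median change was 0.24. In CIA+MLIF against adjuvant+MLIF 8 of the 10 keratinocyte markers were higher, against 0.712% of all probe sets. How far skin, muscle and fibroblast content enter the collagen values was not tested.

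Other lists are set beside all probe sets, of which 4.30% were higher and 14.2% lower in CIA against adjuvant. All 8 neutrophil markers and 6 of 7 osteoclast markers were higher in CIA against adjuvant, all 6 adipocyte markers and all 3 Schwann cell markers measured were lower, and none of 8 endothelial markers passed. On both adjuvant arrays the neutrophil markers Retnlg, Cxcr2 and Mmp8 and the osteoclast markers Dcstamp and Calcr lay below the control entries. Of 8 osteoblast and osteocyte markers 3 were higher and 1 lower, of 9 synovial lining and tendon markers 2 were higher and 2 lower, and of 6 pericyte and smooth muscle markers 2 were lower. Of 6 macrophage markers 1 was lower, which is near the share of all probe sets.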

How the data were processed

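The authors deposited log2 signals for 35557 entries on 8 arrays, which the labels' protocols name as Affymetrix Mouse Gene 1.0 ST. No software or normalization is given by the sources used here. The 6613 entries with the lowest identifiers, taken as controls from their place and unannotated state, were left out, and 28944 probe sets were tested. Symbols came from the platform annotation. The signals were used as deposited, and group means of the 4 groups (2 arrays each) were fitted with limma 3.58.1 in R 4.3.3 (lmFit, eBayes), with 4 residual and 4.96 prior degrees of freedom. Benjamini-Hochberg adjustment ran over all probe sets, with a threshold of 0.05. The script was tested on simulated data. P-values measure the spread between arrays, which may be technical, and only 2 arrays per group limit the precision. The median standard error for CIA against adjuvant was 0.148 over the collagen genes and 0.181 over all probe sets. Collagen classes, pathway lists and cell markers were chosen with earlier results of these data known. Full values are given for up to 3 genes a class that passed with the largest change, for set genes such as Col1a1 and Col2a1, and for genes passing the interaction. Alternatives were other normalizations, filters, probe set averages, array weights, separate fits, a replicate block and leaving out each array. One further collagen gene is not reported here.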

Additional observations from a re-analysis of the deposited data

Results flagged for a closer look

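For 12 collagen genes the change with MLIF differed between collagen-immunised mice (CIA+MLIF against CIA) and mice without collagen (adjuvant+MLIF against adjuvant), by the interaction term of the limma fit. Among the fibrillar genes the difference was -1.14 for Col1a1, -1.08 for Col1a2, -1.03 for Col3a1, -0.94 for Col5a1 and -1.40 for Col5a2. It was -1.31 for Col11a1, -1.62 for Col12a1 and -0.83 for Col15a1. For the type VI chains it was -0.95 for Col6a1, -0.81 for Col6a2 and -1.67 for Col6a3. Col10a1 had the only positive difference among the 12, at 1.14. The adjusted p ran from 0.00287 for Col6a3 to 0.0449 for Col6a2. None of the 12 passed in adjuvant+MLIF against adjuvant, where the values ran from 0.06 for Col15a1 to 0.34 for Col6a3. When the 2 adjuvant+MLIF arrays were counted as 1, which was chosen after seeing the data, fewer genes passed. The share of all probe sets in that fit is not given.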

How the results depend on the processing

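The number of collagen genes that passed depended on how the arrays were scaled and weighted. Shares of all probe sets are given above only for the signals as deposited and for quantile normalization. Counts under the other settings are therefore not read as results about collagen genes. In CIA against adjuvant it was 17, and 23 after quantile normalization, 23 after centring each array on its median, 7 with array weights and 10 when only the 2 groups compared were fitted. In CIA+MLIF against CIA it was 16, and 21, 22, 5 and 8 under the same settings. For the interaction it was 12, and 20 after quantile normalization, 19 after median centring, 9 with array weights and 11 with probe sets averaged per gene. Leaving out each array in turn gave 7 to 30 genes in CIA against adjuvant, 6 to 29 in CIA+MLIF against CIA, 3 to 20 for the interaction and 0 in each of the comparisons without CIA arrays. Fits without an array have fewer degrees of freedom, and otherwise the cause was not tested. Array weights were 0.138 for the CIA arrays and 7.76 for the adjuvant+MLIF arrays. In settings chosen after seeing the data, averaging the adjuvant+MLIF arrays gave 13, 12 and 3 genes, and quantile normalization without CIA replicate 1 gave 22, 21 and 19. Gene by gene, no change of direction was seen among the 20 genes followed in CIA against adjuvant, the 19 in CIA+MLIF against CIA and the 12 of the interaction. These were the genes that passed, with Col2a1, Col4a1 and Col4a2 added in the first 2 comparisons, so that choice favoured a steady direction. Some genes not followed changed sign. Under quantile normalization Col4a5 went from -0.03 to 0.18 and Col22a1 from -0.11 to 0.04 in CIA against adjuvant. The value stayed on its side of the threshold in 276 of 340, 281 of 342 and 129 of 192 gene and setting combinations.

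Replicate numbers are shared by the groups, the labels name no pairing of arrays by them, and the main fit used none. Same-numbered deviations correlated at -0.108 between CIA and CIA+MLIF, at -0.0595 between CIA and adjuvant and at 0.39 between CIA+MLIF and adjuvant. A fit with the replicate number as a block gave 17, 16 and 10 genes, and 0 in both other comparisons. The crossed pairing of CIA+MLIF with CIA, added after seeing the data, gave 16. Shares of all probe sets in these paired fits are not given.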
